A study of Mus musculus with 18 samples.

Results

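The nucleolar and ribosome biogenesis genes described here are 41 genes, chosen by name for the function of their products. They were chosen with earlier results of these data known, and all 41 were found among the 22997 nuclear genes of the files. Single cells came from C57BL/6 wild-type mouse embryos at 2 stages of gastrulation, embryonic day (E) 6.75 and E7.5, with no treatment. At E6.75 the extraembryonic part was removed, embryos were dissociated singly and cells were picked by hand for CEL-Seq2 (6 libraries). At E7.5 embryos were cut below the chorion, those of 1 or 2 litters were pooled, and cells were sorted by flow cytometry for mCEL-Seq2, a miniaturised form of the protocol (12 libraries). Both protocols label the 3′ end of each polyadenylated RNA with a barcode of its cell and a random sequence that marks the molecule (UMI), so a molecule counts once whatever its length. Stage, way of collecting cells and protocol changed together and cannot be told apart, and the embryo behind each cell was not known. The labels call the tissue whole embryo and name no cell type, so cells were also compared within each stage by whether they held at least 1 transcript of T, Mesp1, Foxa2 or Sox2. T marks the primitive streak and its descendants, Mesp1 early mesoderm, Foxa2 definitive endoderm, axial mesoderm and visceral endoderm, and Sox2 the epiblast and its ectoderm descendants. A cell without such a transcript may still express the gene.

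Ribosomes are assembled in the nucleolus. RNA polymerase I, recruited by UBTF, transcribes ribosomal DNA into a long precursor RNA, which box C/D and box H/ACA small nucleolar ribonucleoproteins (snoRNPs) methylate and pseudouridylate. Processing complexes then cut and fold this RNA into the small and the large subunit. MYC and its paralogue MYCN bind DNA as dimers with MAX and are known activators of many of these genes. Epiblast cells divide fast and are known for prominent nucleoli. The 41 members were ordered by role: 2 MYC transcription factors, 5 genes of RNA polymerase I transcription, 5 nucleolar phosphoproteins and chaperones, 3 box C/D and 4 box H/ACA snoRNP proteins, 13 small subunit processing factors and 9 large subunit processing factors.

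CACGTG, the canonical E-box, is the sequence that MYC and MAX are known to bind, so the promoters were searched for these letters, which read the same on both strands. RefSeq windows from 250 bases before to 50 bases after the start of transcription (build GRCm38.p6) were found for 34 of the 41 members, and the letters occurred in 7 of them (20.6%). They occurred in 8.09% of the windows of all 27025 genes and in 12.7% of the windows of the 7522 genes that were tested between stages. Counting only matches before the start, 2 of the 34 member windows held the letters (5.88%), against 10.7% of the windows of the tested genes. The 7 matches are shown with up to 12 bases on each side, 5′ to 3′ on the strand of the gene, with the E-box in capitals.
Nop2, chr6:125131811-125131840 (plus strand), 60 bases before the start: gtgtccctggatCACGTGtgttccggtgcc
Utp18, chr11:93885769-93885798 (minus strand), 20 bases before the start: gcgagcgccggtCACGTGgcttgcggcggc
Pes1, chr11:3963965-3963994 (plus strand), 2 bases after the start: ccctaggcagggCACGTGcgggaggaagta
Wdr43, chr17:71616220-71616249 (plus strand), 17 bases after the start: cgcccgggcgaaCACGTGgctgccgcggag
Tsr1, chr11:74898092-74898121 (plus strand), 24 bases after the start: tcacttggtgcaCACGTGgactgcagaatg
Utp20, chr10:88826765-88826789 (minus strand), 37 bases after the start: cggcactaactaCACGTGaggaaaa
Mybbp1a, chr11:72441355-72441376 (plus strand), 40 bases after the start: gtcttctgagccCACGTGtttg
A match says only that these letters are in the window, and no binding was measured here.

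Cells with at least 2000 nuclear transcripts were kept, 543 of 576 used barcodes at E6.75 and 429 of 1152 at E7.5, where the design text gives 576 and 1172 cells. E7.5 replicate 5 had no kept cell, so 6 and 11 libraries entered the tests, with 2933395 to 5493791 nuclear transcripts in the early and 518343 to 2627269 in the late libraries. Median depth per kept cell ranged over libraries from 22330 to 54690 transcripts (E6.75) and from 18980 to 57140 (E7.5). Of 11 visceral endoderm markers, all 11 had transcripts at both stages, and their summed level was 135 to 887 CPM (transcripts scaled to 1000000 nuclear transcripts) in the E6.75 libraries and 2.97 to 362 in those of E7.5. The 8 extraembryonic ectoderm markers summed to 9.32 to 86.4 and 14.3 to 143 CPM. Maternal leukocyte markers (5 genes, C1qa at 0 throughout) did not exceed 1.75 and 3.22 CPM, and primitive erythroid markers (8 genes) reached 3.50 CPM at E6.75, with Hbb-bh1, Hbb-y and Alas2 at 0, and 132 CPM at E7.5. Libraries drew on shared sets of 96 barcodes, 16 of the 18 on one or the other of 2 sets, so a shared barcode does not mean a shared cell. The E6.75 replicates 1_10 and 1_11 stood apart in holding spike-in RNA, and stage counts are given with and without them. Nothing in the labels says that libraries came from separate embryos, so p-values measure the spread between libraries, which may be technical.

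Between the stages, 33 of the 41 members fell from E6.75 to E7.5 and none rose (edgeR quasi-likelihood test on sums per library, Benjamini-Hochberg adjusted p under 0.05 over 9998 genes). Of all genes tested, 38.3% were called, 18.7% lower and 19.6% higher. The median log2 fold change of the members was -0.48, against 0.03 for all genes tested. Summed over the 41 genes, E6.75 libraries held 24247, 26285 and 30679 CPM (lowest, median and highest) and E7.5 libraries 15594, 18883 and 20005 CPM. The lowest E6.75 library lay above the highest E7.5 library. Ncl and Npm1 made up most of this sum, and without them the libraries held 10375 to 11762 CPM at E6.75 and 6824 to 8869 CPM at E7.5. The count of falling members was 32 to 34 when single libraries were left out and 29 when E6.75 was represented by its 4 prefix 2 libraries (14.5% of all genes fell). In cells thinned to 2000 transcripts 13 of 35 testable members fell and none rose, with 11.5% of all genes falling.

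**Figure D1:**
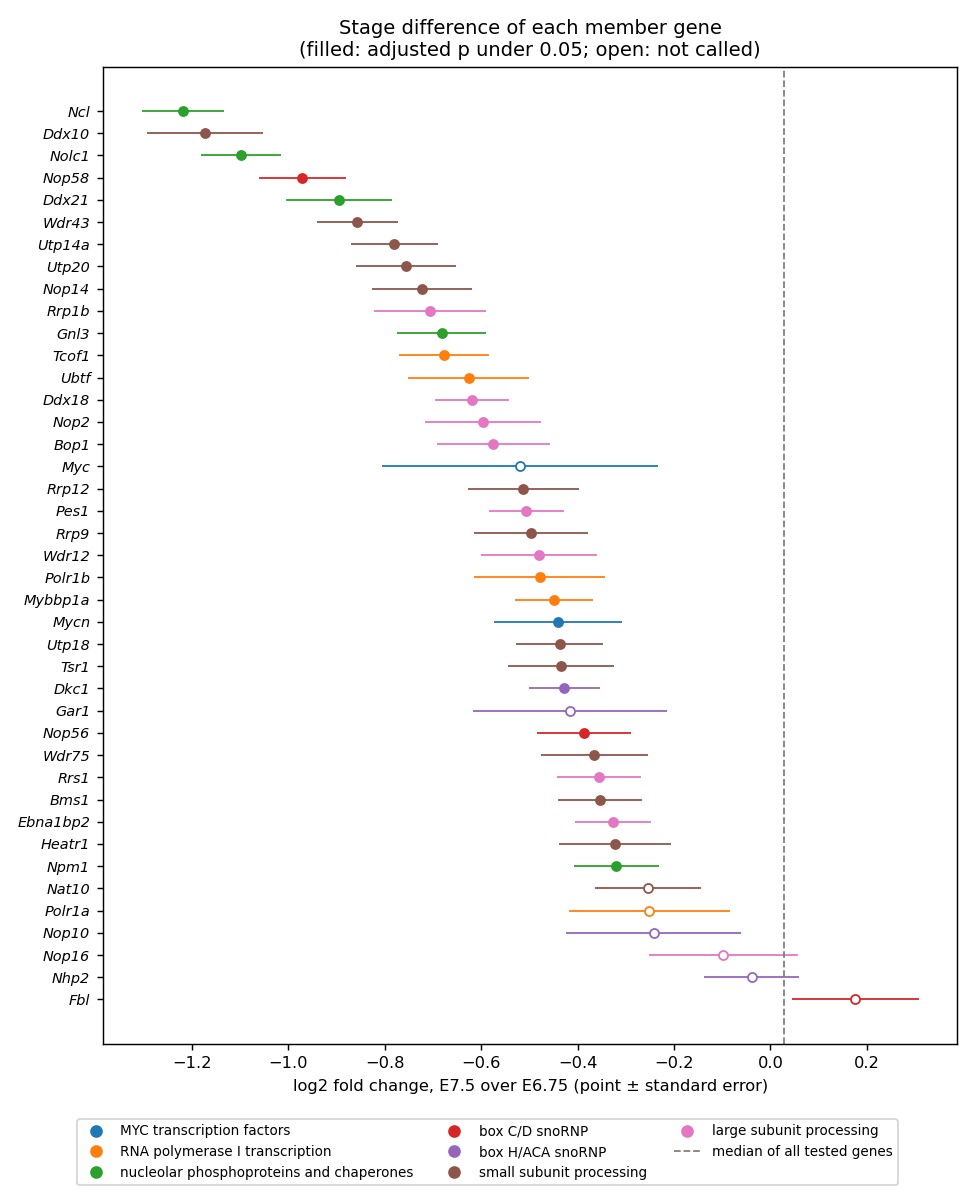
Log2 fold change of each of the 41 genes, E7.5 over E6.75, with its standard error, coloured by role; filled points passed an adjusted p of 0.05 and the dashed line is the median of all tested genes (0.03). Of the 41 points, 40 lie below 0, from -1.22 for Ncl to -0.04 for Nhp2, and Fbl lies at 0.18 without a call.

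All 5 nucleolar phosphoproteins and chaperones fell. Ncl encodes nucleolin, an abundant nucleolar protein that binds precursor ribosomal RNA. The 6 E6.75 libraries held 5299, 6515 and 7824 CPM of Ncl (lowest, median, highest) and the 11 E7.5 libraries 2358, 3045 and 3275 CPM. The ranges did not overlap, and the log2 fold change was -1.22 (SE 0.08, adjusted p 6.945e-10, edgeR), the lowest value among the members. Nolc1 encodes a nucleolar phosphoprotein that serves snoRNPs as a chaperone. Its level was 613, 718 and 795 CPM at E6.75 and 278, 341 and 387 CPM at E7.5, a log2 fold change of -1.10 (SE 0.08), again with no overlap. Ddx21, an RNA helicase of the nucleolus, had 543, 682 and 844 CPM at E6.75 and 296, 399 and 491 CPM at E7.5 (-0.90, SE 0.11), and Gnl3, which encodes nucleostemin, fell by 0.68 on the log2 scale (SE 0.09). Neither gene overlapped between stages. Npm1 encodes nucleophosmin, a scaffold of the outer nucleolus, and its level of 9209 ± 1141 CPM (SD, n = 6 libraries) at E6.75 and 7687 ± 1038 CPM (SD, n = 11) at E7.5 moved least of the 5 (-0.32, SE 0.09, adjusted p 0.006067, edgeR). The Npm1 ranges overlapped, from 7764 to 11163 and from 6109 to 9063 CPM.

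The snoRNP proteins did not move alike. Among the 3 box C/D proteins, Nop58 fell from 891, 950 and 1192 CPM to 392, 536 and 629 CPM (log2 fold change -0.97, SE 0.09), with no overlap. Its partner Nop56 fell by less (-0.39, SE 0.10), from 1169 ± 191 to 929 ± 125.5 CPM (SD, n = 6 and 11). Fbl, the gene of the methyltransferase fibrillarin in the same particle, had 292 ± 49.0 and 345 ± 72.8 CPM, and its log2 fold change of 0.18 (SE 0.13) did not pass the test (adjusted p 0.3041, edgeR). Of the 4 box H/ACA proteins only Dkc1, the gene of the pseudouridine synthase dyskerin, was called, at 525.5 ± 32.3 and 407 ± 33.5 CPM (-0.43, SE 0.07). The log2 values of its partners were -0.42 (SE 0.20) for Gar1, -0.24 (SE 0.18) for Nop10 and -0.04 (SE 0.10) for Nhp2, none of them called. The differences between the members of a particle were not tested.

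In RNA polymerase I transcription, 4 of 5 genes fell. Tcof1, whose product treacle links the polymerase to ribosomal DNA, had 357, 369 and 413 CPM at E6.75 and 166, 242 and 307 CPM at E7.5 (log2 fold change -0.68, SE 0.09), with no overlap. Ubtf fell from 87.2 ± 8.69 to 59.9 ± 15.0 CPM (-0.63, SE 0.13), Polr1b, the second largest polymerase subunit, by 0.48 on the log2 scale (SE 0.14) and Mybbp1a by 0.45 (SE 0.08). Polr1a, the largest subunit, was not called, at -0.25 (SE 0.17).

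Of the 13 small subunit processing factors, 12 fell. The 5 with the largest differences were the helicase gene Ddx10 (log2 fold change -1.17, SE 0.12), Wdr43 (-0.86, SE 0.08), Utp14a (-0.78, SE 0.09), Utp20 (-0.76, SE 0.10) and Nop14 (-0.72, SE 0.10), most of them components of the small subunit processome. Ddx10 libraries held 153, 183 and 256 CPM at E6.75 and 55.8, 87.6 and 108 CPM at E7.5. Wdr43 went from 474, 511 and 577 CPM to 237, 314 and 355 CPM. None of these 5 genes overlapped between stages. Rrp12 (-0.51, SE 0.12) and Rrp9 (-0.50, SE 0.12), a protein that binds the U3 snoRNA, fell by less. Utp18, Tsr1, Wdr75, Bms1 and Heatr1 fell by 0.44, 0.43, 0.37, 0.35 and 0.32. Nat10, an RNA acetyltransferase, was the 1 gene of this role not called, at -0.25 (SE 0.11, adjusted p 0.0715, edgeR).

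Of the 9 large subunit processing factors, 8 fell. Bop1 (-0.57, SE 0.12), Pes1 (-0.51, SE 0.08) and Wdr12 (-0.48, SE 0.12) encode the 3 proteins of the PeBoW complex and fell by similar amounts. Pes1 libraries held 162, 184 and 190 CPM at E6.75 and 112, 132 and 151 CPM at E7.5, with no overlap. The ranges of Bop1 and of Wdr12 did overlap. Rrp1b (-0.71, SE 0.12), the helicase gene Ddx18 (-0.62, SE 0.08) and the methyltransferase gene Nop2 (-0.60, SE 0.12) fell further. Ddx18 libraries held 373, 397 and 424 CPM and then 233, 262 and 332 CPM, again with no overlap. Rrs1 and Ebna1bp2 fell by 0.36 and 0.33. Nop16 was not called (-0.10, SE 0.15).

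Of the MYC genes, Mycn was called lower and Myc, which had the lowest mean level of the 41 members at both stages, was not. Mycn had 179, 272 and 352 CPM at E6.75 and 151, 203 and 271 CPM at E7.5, ranges that overlapped, and fell by 0.44 on the log2 scale (SE 0.13, adjusted p 0.01148, edgeR). The Mycn call was lost in 4 comparisons: against the prefix 2 libraries of E6.75 (-0.38), in T-positive cells (-0.29), in Sox2-positive cells (-0.32) and in cells thinned to 2000 transcripts (-0.11). Myc had 26.6, 37.4 and 46.3 CPM and then 4.87, 29.0 and 46.0 CPM, and its log2 value of -0.52 (SE 0.29) was not called (adjusted p 0.1646, edgeR). In all, 14 members had ranges that did not overlap, each of them lower at E7.5 (against 4.23% of all genes tested), and none was apart in the other direction (4.01% of all genes).

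**Figure D2:**
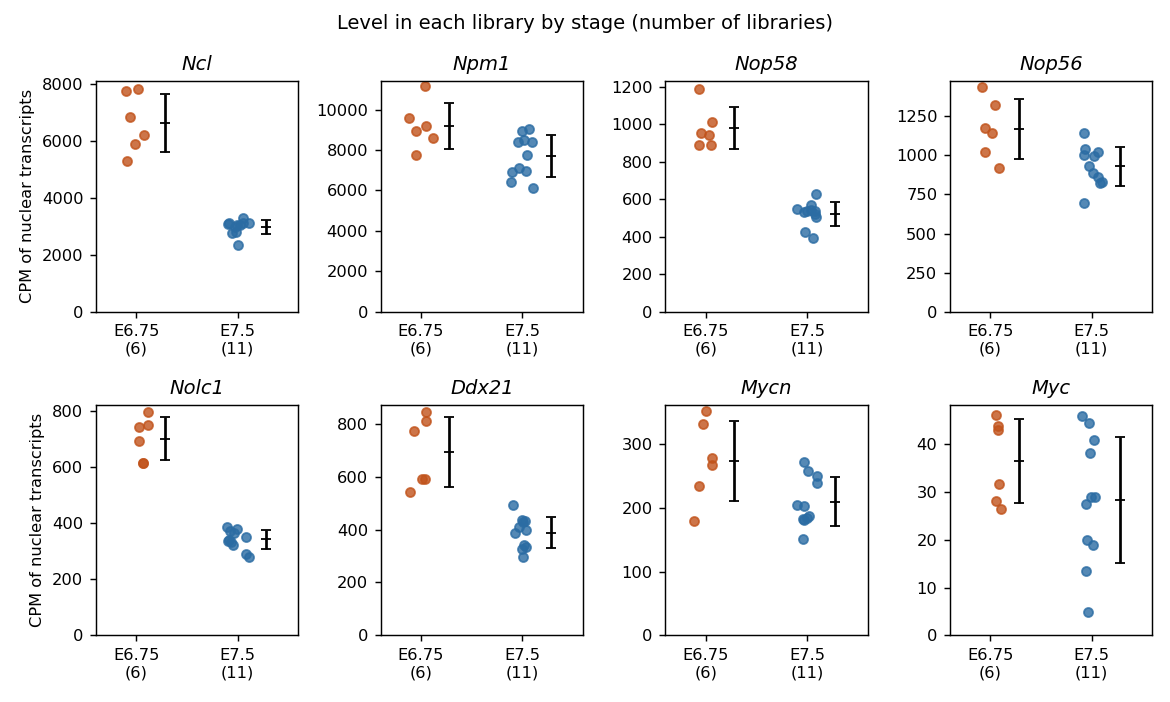
Level of 8 members in each library, in CPM of nuclear transcripts, for 6 E6.75 and 11 E7.5 libraries; points are libraries and bars are means with SD. Ncl, Nop58, Nolc1 and Ddx21 did not overlap between the stages, and Npm1, Nop56, Mycn and Myc did.

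Other genes of the pathway and its surroundings, taken from separate lists, were set beside the members. These lists too were chosen with earlier results of these data known. Of 98 tested other ribosome biogenesis factors, 55 fell and 2 rose (median log2 fold change -0.34). Mdn1, an ATPase gene of large subunit maturation, was at -1.25 (SE 0.10) and Las1l, an endonuclease gene of the same pathway, at -1.07 (SE 0.12). Ribosomal protein genes, the structural components, went the other way: 32 of 74 rose and 4 fell, with a median of 0.32. Their summed level was 95772 ± 8543 CPM at E6.75 and 113750 ± 8230 CPM at E7.5 (SD, n = 6 and 11). The library ranges overlapped, from 84613 to 107325 and from 100222 to 125760 CPM. By length of the longest GENCODE transcript, 63 of these genes lay in the shortest of 4 equal bins, where the median of all genes was 0.11. The 4 that fell included the paralogues Rpl10l (-4.69, SE 0.48) and Rpl39l (-3.52, SE 0.37), which may share reads with their near-identical parent genes. Of 14 snoRNA host genes tested, Gnb2l1 rose (0.40, SE 0.09) and Snhg5 and Snhg1 fell (-0.61, SE 0.12 and -0.51, SE 0.11). Among 9 tested genes from a list of MYC partners, antagonists and related genes, 5 fell. They included Max (-0.92, SE 0.10), Mga (-0.56, SE 0.11) and the MYC family gene Mycl (-1.04, SE 0.19). Mxd4, a MAX partner that opposes MYC, rose (1.94, SE 0.36). Of 12 p53 response genes, 6 fell and 1 rose. Over all genes tested, 18.7% fell and 19.6% rose, and the falling snoRNA host genes lay near that share.

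Other measures moved with stage beside the members. Immediate early genes, which tissue handling is known to induce, summed to 587 to 1004 CPM in E6.75 libraries and 132 to 229 CPM in E7.5 libraries, and 9 of 11 tested fell. Visceral endoderm markers fell in 6 of 7 tests, and with cells rich in them left out 34 members fell. Of 18 G2/M genes 12 fell and 1 rose (median -0.45). Of 18 S phase genes 4 fell and 1 rose (median -0.08), near the 18.7% of all genes that fell. The mitochondrial share of transcripts was 13.7% to 18.6% in E6.75 and 8.99% to 14.3% in E7.5 libraries. The part of the immediate early, cell cycle and mitochondrial differences in the fall of the members was not tested. By length of the longest GENCODE transcript, tested genes had medians of 0.11, 0.04, -0.01 and -0.03 in 4 equal bins from the shortest to the longest, and members in those bins had medians of -0.32, -0.52, -0.51 and -0.62. By mean level, 33 members lay in the highest of 4 equal bins, where the median of all genes was -0.11 and 33.7% of genes fell, and 28 of those 33 members fell (median -0.50). With the stages compared in T-positive cells alone, 30 members fell and none rose (median -0.51), where 16.2% of all genes fell (median of all genes 0.01). In Sox2-positive cells 31 members fell and none rose (median -0.51), where 14.8% of all genes fell (median 0.01). T was detected in 28.7% of kept cells at E6.75 and 66.0% at E7.5, and Sox2 in 72.6% and 45.0%. Cells picked by such a transcript need not be of like type at both stages, and collection and protocol still differed between them.

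Within the stages, T and Mesp1 detection separated no member by the test. Of the genes tested at E6.75, 3.3% were called between cells with and without T, and 1.48% between cells with and without Mesp1 (3 libraries). Corresponding shares at E7.5 were 2.02% and 7.91% of genes. A library at E7.5 held 7 to 66 T-positive and 3 to 35 T-negative cells. It held 4 to 30 Mesp1-positive and 5 to 58 Mesp1-negative cells. The smallest sum, of T-negative cells in replicate 9, had 13025 transcripts. No member was called in these 4 comparisons with edgeR or with DESeq2. At an unadjusted p under 0.05 there were 2, 2, 4 and 4 members in the same order, and 12.6%, 9.16%, 9.83% and 18.3% of all genes, so that the members lay at or below the background. The median log2 fold change of the members was 0.02 and 0.10 at E6.75 (all genes 0.001 and 0.002) and -0.03 and 0.01 at E7.5. Of the 41 values, 16 for T and 5 for Mesp1 lay below 0 at E6.75, and 25 and 19 at E7.5. Summed member levels at E7.5 had a median of 18750 CPM in Mesp1-positive and 18752 CPM in Mesp1-negative cells over 11 libraries. Within libraries, the sum was higher in Mesp1-positive cells in 7 of 11 at E7.5 and in 2 of 3 at E6.75. Myc was at 0.43 (SE 0.19) and Mycn at 0.19 (SE 0.11) in the Mesp1 comparison at E6.75, and at 0.24 (SE 0.25) and 0.21 (SE 0.14) at E7.5. Across T, Myc was at 0.17 (SE 0.13) and 0.08 (SE 0.29), and Mycn at -0.22 (SE 0.09) and -0.26 (SE 0.10). These values leave room for differences of that size. Single libraries left out gave 1 called member for T at E6.75 (without replicate 2_9) and 1, 2 and 1 for Mesp1 at E7.5 (without replicates 4, 6 and 8).

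**Figure D3:**
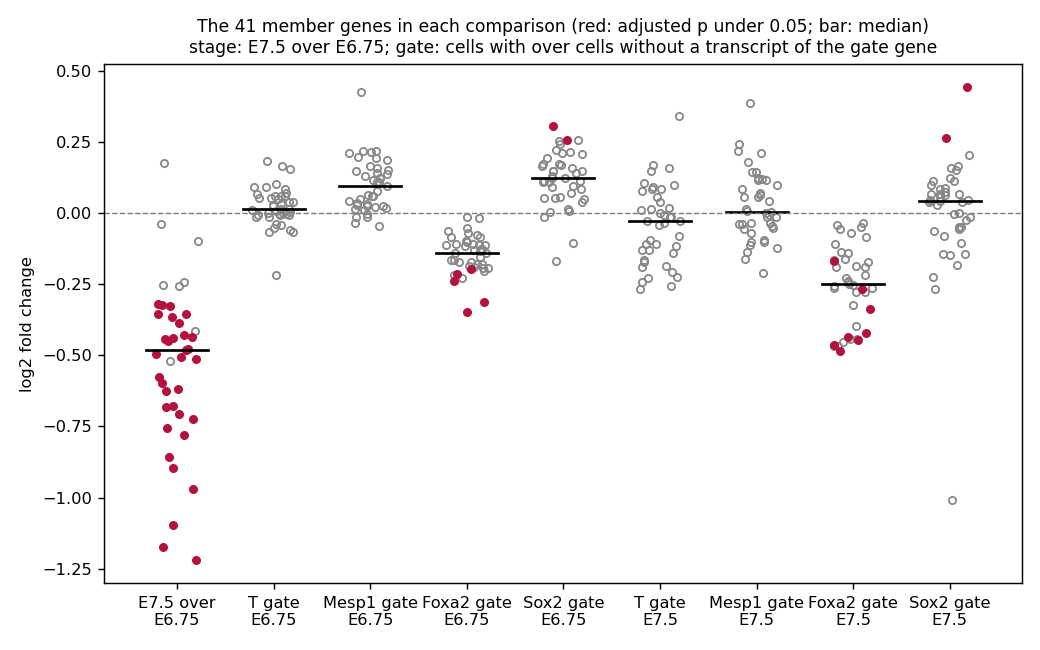
Log2 fold change of the 41 members in the stage comparison and in each comparison of cells with and without a transcript of T, Mesp1, Foxa2 or Sox2; red points passed an adjusted p of 0.05 and bars are medians. The medians of the Foxa2 comparisons lie at -0.14 and -0.25, with 41 of 41 points below 0 in each.

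Summed over the 41 genes, Foxa2-positive cells held less than Foxa2-negative cells of their library in every library tested at both stages. At E7.5, 8 members were lower in Foxa2-positive cells and none was higher (9 libraries, library as a block, edgeR), where 4.3% of all genes were called and 1.48% were lower. All 41 log2 values lay below 0, with a median of -0.25 against -0.02 for all genes tested. The summed member level was 13791, 16251 and 18141 CPM in positive cells and 16183, 19070 and 20223 CPM in negative cells, and it was lower in positive cells in 9 of 9 libraries. Positive cells numbered only 3 to 16 in a library. The called genes were 4 of the 5 nucleolar phosphoproteins and chaperones (Gnl3, Ddx21, Ncl and Npm1), Nop56, Tcof1, and the small subunit factors Wdr43 and Tsr1.

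Gnl3 had 170, 210 and 329 CPM in Foxa2-positive and 274, 340 and 399 CPM in Foxa2-negative cells at E7.5, and was lower in 9 of 9 libraries (log2 fold change -0.48, SE 0.10, adjusted p 0.0012, edgeR). Wdr43 had 146, 212 and 286 CPM against 242, 322 and 338 CPM, also lower in 9 of 9 libraries (-0.46, SE 0.11). Ncl was lower in every one of the 9 libraries, at 2532 ± 296 against 3002 ± 230 CPM (SD, n = 9), with a log2 value of -0.27 (SE 0.05, adjusted p 0.0002391, edgeR). Npm1 was at -0.17 (SE 0.04), and Tcof1 at -0.42 (SE 0.12), both lower in 9 of 9 libraries. Ddx21 (-0.43, SE 0.10) and Nop56 (-0.34, SE 0.08) were lower in 8 of 9 libraries, and Tsr1 (-0.45, SE 0.14) in 7 of 9. Across the libraries the positive and negative ranges of each of these 8 genes overlapped, so the call rests on differences within libraries. Without the library block no member was called, with log2 values of -0.42 for Gnl3, -0.42 for Wdr43, -0.20 for Ncl and -0.10 for Npm1. None was called in cells thinned to 2000 transcripts either, where Ncl was at -0.74 (SE 0.22, adjusted p 0.0776, edgeR) and Npm1 at -0.60 (SE 0.17, adjusted p 0.0551, edgeR). The count was 4 with DESeq2, 5 with RLE factors and 15 when genes with low counts were kept in the test. Mycn was at -0.45 (SE 0.28) and Myc at -0.44 (SE 0.30), neither called. With positive cells held to at least 2 Foxa2 transcripts, Mycn was called at -1.47 (SE 0.23).

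**Figure D4:**
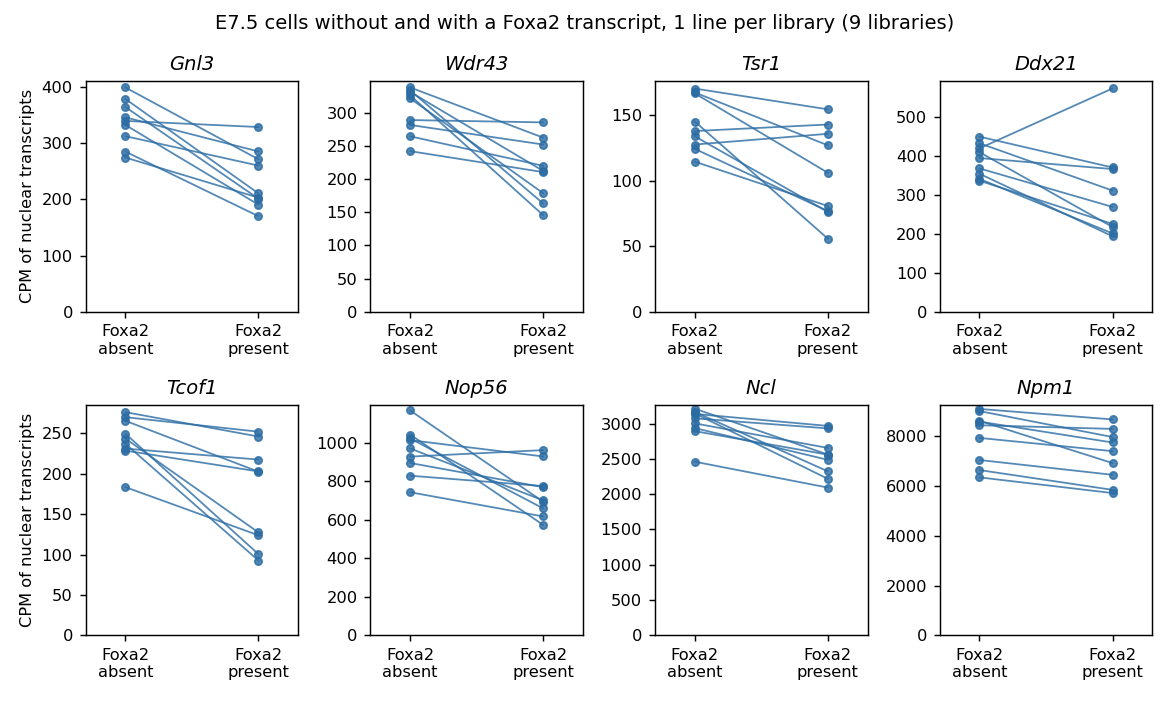
Level of the 8 called members, in CPM of nuclear transcripts, in E7.5 cells without and with a Foxa2 transcript, with 1 line for each of 9 libraries. Lines of Gnl3, Wdr43, Tcof1, Ncl and Npm1 fall in 9 of 9 libraries, and those of Ddx21, Nop56 and Tsr1 in 8, 8 and 7.

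Few genes of the other lists were called across Foxa2 at E7.5. Of 97 other biogenesis factors 2 were lower, Rpf2 (-0.65, SE 0.16) and Nifk (-0.44, SE 0.14), with a list median of -0.22, against 1.48% of all genes lower. No ribosomal protein gene of 71 was called (median -0.02). Max was lower (-0.65, SE 0.20), while Mxi1 (0.92, SE 0.26) and Mxd4 (1.48, SE 0.45), which compete with MYC for MAX, were higher. S phase genes summed to 2675 to 4353 CPM in positive and 3923 to 4367 CPM in negative cells and were lower in 9 of 9 libraries, with Rrm2 called (-0.41, SE 0.11). Visceral endoderm markers were at 9.42 to 894 CPM in positive and 2.45 to 54.5 CPM in negative cells. Extraembryonic ectoderm markers were lower in positive cells in 9 of 9 libraries (ranges 0 to 25.9 and 15.6 to 212 CPM). With the 1 cell rich in visceral endoderm markers left out, 10 members were lower. That cell held no Foxa2 transcript, so no positive cell was removed. The part of the S phase genes and of the extraembryonic ectoderm markers was not tested.

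At E6.75, 5 members were lower in Foxa2-positive cells and none was higher (6 libraries), where 4.88% of all genes were called and 1.35% were lower. They were Utp18 (-0.35, SE 0.10), Mycn (-0.31, SE 0.07), Nolc1 (-0.24, SE 0.06), Ddx18 (-0.21, SE 0.06) and Ncl (-0.20, SE 0.06). All but Mycn were lower in 6 of 6 libraries, and Mycn in 5. Nolc1 had 536, 661 and 720 CPM in positive and 644, 726 and 831 CPM in negative cells, and Utp18 50.7, 70.1 and 75.8 against 77.8, 87.5 and 92.7 CPM. The Utp18 ranges did not overlap and those of Nolc1 did. All 41 log2 values lay below 0 here too, with a median of -0.14. Visceral endoderm markers were higher in 10 of 10 tests (median 3.08), and summed to 503 to 1661 CPM in positive and 24.4 to 339 CPM in negative cells. Ribosomal protein genes and S phase genes were each lower in summed level in 6 of 6 libraries (list medians -0.12 and -0.17), with none of 75 and 1 of 18 called. Of 98 other biogenesis factors, 3 were lower and 1 was higher. The part of the S phase genes was not tested. Of the 27 cells rich in visceral endoderm markers, 19 were among the 132 Foxa2-positive and 8 among the 411 Foxa2-negative cells. When these 27 cells were left out, no member was called. The 5 genes then had log2 values of -0.29, -0.21, -0.16, -0.15 and -0.13 in the order above. No member was called either without replicate 2_14 or without the library block, and 2 were called without replicate 1_10 and without replicate 2_13.

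Summed over the 41 genes, Sox2-positive cells held more than Sox2-negative cells in 6 of 6 libraries at E6.75, at 24276, 26678 and 30989 CPM against 21928, 23810 and 28132 CPM. The median log2 value was 0.12 (all genes 0.01), and 3 of 41 values lay below 0. At an unadjusted p under 0.05, 11 members were higher and none lower, where 15.5% of all genes passed in either direction. After adjustment, Rrs1 (0.31, SE 0.09) and Wdr43 (0.26, SE 0.07) were higher in Sox2-positive cells (6 libraries), where 4.09% of all genes were called and 1.05% were higher. Wdr43 had 478, 525 and 589 CPM in positive and 399, 432 and 478 CPM in negative cells. It was higher in 6 of 6 libraries, as was Rrs1, while the 2 ranges of each gene overlapped. Visceral endoderm markers summed to 1057 to 1880 CPM in Sox2-negative and 11 to 673 CPM in Sox2-positive cells, and median depth was 12745 and 49468 transcripts. No member was called with the cells rich in these markers left out, with DESeq2, without the library block, or without any one of the replicates 1_10, 1_11, 2_12, 2_13 and 2_14, and 5 were called without 2_9.

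At E7.5 the log2 values of the paralogues Mycn and Myc had opposite signs across Sox2. The difference between the 2 genes was not tested, and Myc was counted at a median of 0 transcripts a cell. Mycn was higher in Sox2-positive cells, at 133, 235 and 298 CPM against 66.8, 184 and 215 CPM, in 9 of 10 libraries (log2 fold change 0.44, SE 0.11, adjusted p 0.006832, edgeR). Myc was lower in 9 of 10 libraries, at 0, 20.4 and 44.1 CPM against 8.93, 33.4 and 76.2 CPM. Its log2 value of -1.01 (SE 0.34) did not pass the test (adjusted p 0.0845, edgeR), and it passed with DESeq2 (-1.15, adjusted p 0.0286) and in 3 of the edgeR alternatives (adjusted p 0.00141 to 0.0483). Wdr43 was the other called gene (0.26, SE 0.08), higher in 9 of 10 libraries. In this comparison 8.5% of all genes were called and 4.34% were higher, so 2 of 41 members is near the background. The median over members was 0.04. The count was 1 without replicate 2, 4, 7, 8 or 10. Without the library block no member was called.

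The gate differences were not shown to change between stages. In the test of the gate-by-stage interaction no member was called for T, Mesp1, Foxa2 or Sox2 with edgeR or DESeq2, where 0.356%, 0.253%, 1.21% and 1.79% of all genes were called. At an unadjusted p under 0.05 there were 1, 0, 6 and 5 members, and 7.18%, 5.6%, 10.8% and 11.6% of all genes. The lowest adjusted p over these tests was 0.1012. Myc across Sox2 had an interaction value of -1.22 (SE 0.43, adjusted p 0.2009, edgeR), and it was called at -1.33 (adjusted p 0.0025, edgeR) when genes with low counts were kept in the test.

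A Myc transcript was present in 302 of 543 E6.75 cells (55.6%) and 138 of 429 E7.5 cells (32.2%). With every cell thinned to 2000 transcripts the shares were 4.24% and 4.20%. Thinning left Myc in only 23 and 18 cells, too few to show whether its detection differs between the stages at equal depth. For Mycn the shares were 88.4% and 84.1%, and 36.1% and 31.9% after thinning, a gap of similar size. Ncl was detected in 543 of 543 and 427 of 429 cells, with a median of 246 and 84 transcripts a cell. Cells with both Myc and Mycn numbered 296 at E6.75, where independence within libraries gave 270, and 122 against 116 at E7.5. The mean log2 ratio of observed to expected was 0.15 ± 0.11 (SD, n = 6), above 0 in 6 of 6 libraries (exact two-sided sign-flip permutation p 0.03125, the smallest that 6 libraries can give, adjusted p 0.0625 over the 2 stages). At E7.5 it was 0.09 ± 0.21 (SD, n = 11), above 0 in 7 of 11 (exact p 0.207, adjusted p 0.207). Neither passed after adjustment. In cells with at least 10000 transcripts the ratios were 0.04 and -0.03.

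Single cells varied in their member transcripts within each stage. In cells thinned to 10000 transcripts, which left out 92 and 90 shallower cells, the 41 genes gave a median of 264 transcripts at E6.75 (451 cells, 25th to 75th percentile 240 to 289) and 189 at E7.5 (339 cells, 170 to 208). Foxa2-positive cells had medians of 234 (78 cells) at E6.75 and 150 (29 cells) at E7.5, against 270 and 190 in Foxa2-negative cells, with gates set on the thinned counts. Cells rich in visceral endoderm markers were not left out of these medians. Mesp1-positive and Mesp1-negative cells at E7.5 had medians of 189 and 188.5. Within libraries at this depth, the mean correlation of Ncl with the sum of the other 40 genes was 0.47 at E6.75 (451 cells, 6 libraries) and 0.36 at E7.5 (339 cells, 11 libraries). The member sum correlated at 0.65 and 0.59 with the other ribosome biogenesis factors, at 0.39 and 0.31 with S phase genes and at 0.13 and 0.05 with G2/M genes. These correlations across cells are descriptions, and cells of a library share their preparation and their total.

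**Figure D5:**
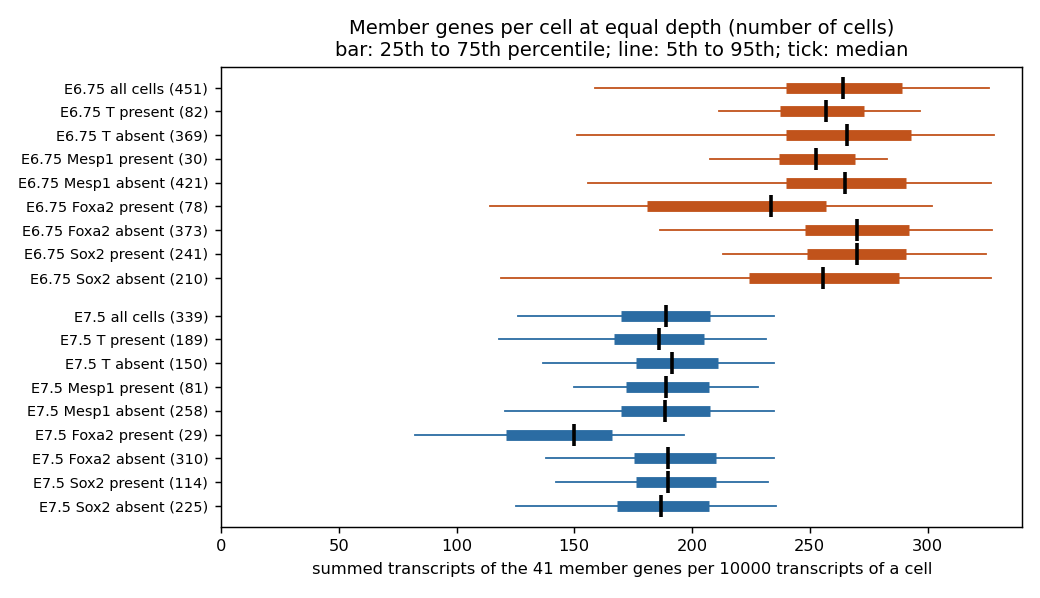
Summed transcripts of the 41 members in each cell thinned to 10000 transcripts, by stage and by detection of T, Mesp1, Foxa2 or Sox2 after thinning; ticks are medians, thick bars the 25th to 75th and lines the 5th to 95th percentile over cells. The E6.75 medians lie between 234 and 270 and the E7.5 medians between 150 and 191.5, and Foxa2-positive cells have the lowest median of their stage. Cells rich in visceral endoderm markers are not left out.

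The positions of the genes bear on how their reads could be shared. In the GENCODE M21 annotation of GRCm38, Ncl lies on chromosome 1 at 86344719 to 86359400 (minus strand), Npm1 on chromosome 11 at 33152287 to 33163206 (minus), Mycn on chromosome 12 at 12936093 to 12941914 (minus) and Myc on chromosome 15 at 61985391 to 61990374 (plus). A total of 21 snoRNA genes lie inside 7 of the members, Ncl, Nop58, Nop56 and Gnl3 among them. Of the members, 17 overlap a gene on the other strand, such as Mybbp1a with Spns2, Gnl3 with Pbrm1 and Nop56 with Idh3b, and reads of such pairs cannot be told apart where strand is ignored, which is not given in the sources used here. Npm1 and other members with processed pseudogenes may share reads with them.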

How the data were processed

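Each library holds UMI counts of single cells from E6.75 (6 libraries) or E7.5 (12 libraries) embryos. As deposited by the authors, the values are expected counts per gene: each equals a UMI number corrected for collisions among 4096 possible UMI sequences, which was checked on the values, and they were rounded to whole numbers for count tests. Per the submitters' processing notes, bcl2fastq 2.17.1.14 and BWA 0.6.2-r126 were used. The counter, genome build, annotation and use of strand are not given in the sources used here. Of 192 barcode columns in a file, 96 were used in each library. Cells with at least 2000 nuclear transcripts were kept (972), spike-in and mitochondrial features were left out of totals, and libraries with fewer than 10 kept cells were left out.

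Counts were summed per library, or per library and side of a gate (at least 3 cells on each side), and tested with edgeR 4.0.16 in R 4.3.3 (TMM, filterByExpr, robust quasi-likelihood F test, Benjamini-Hochberg over all genes tested, called at an adjusted p under 0.05). Gate comparisons had the library as a block, since both sides come from the same library. Printed standard errors are the absolute log2 fold change divided by the square root of F. Levels are CPM of nuclear transcripts. Co-detection used (observed + 0.5)/(expected + 0.5) per library. On counts simulated for the stage comparison (9876 genes), the test recovered 100% of genes changed by 1 on the log2 scale and 51.5% of those changed by 0.5. For the Foxa2 comparison at E7.5 (8324 genes) the shares were 78.3% and 17.2%. The simulation gave all libraries the same mean profile and all genes the same fixed dispersion. It held no further differences between libraries or between sums of few and many cells. These shares therefore do not measure the power of the tests on the real counts. Alternatives were RLE factors, library totals, DESeq2 1.42.0, no filter, thinned or deep cells, cells rich in visceral endoderm markers left out (at least 0.5% of transcripts), a gate at 2 transcripts, no block, uncorrected UMIs and each library left out. Members and lists were chosen with earlier results of these data known. Genes named were all members called, up to 20 by stage and 12 by gate in order of fold change, Myc and Mycn throughout, and up to 4 called genes of each other list; the remaining members are given to account for all 41. Python 3.11.15 and scipy 1.17.1 served the levels and exact tests.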

Additional observations from a re-analysis of the deposited data

Results flagged for a closer look

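The log2 difference of Wdr43 across Sox2 at E7.5 was -0.38 in replicate 12, the lowest of 10 libraries and apart from the rest by 0.519 of their range (Dixon's test). Of 58 sets of libraries examined in this way 1 was picked out, where chance picks out about 1 in 20. Among genes outside the 41, the Foxa2 difference changed between stages (E7.5 minus E6.75, interaction test in edgeR) for the MAX partner gene Mxi1 by 1.09 on the log2 scale (adjusted p 0.04396) and for Max by -0.79 (adjusted p 0.03038). The Sox2 difference changed for Riok1, a kinase gene of small subunit maturation, by -0.71 (adjusted p 0.02679), for Cirh1a, a small subunit processome gene, by -0.46 (adjusted p 0.04418), and for the ribosomal protein gene Rps29 by 0.36 (adjusted p 0.04047). The barcode columns that a library did not use held 4543 member transcripts over all libraries, 0.516% of those in used columns. E7.5 replicate 5, which had no kept cell, held 73 member transcripts.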

How the results depend on the processing

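The fall of members between stages kept its direction in every alternative run, with 29 to 34 of 41 called and none rising, except that 13 of the 35 members testable were called in cells thinned to 2000 transcripts. Leaving out single libraries gave 32 to 34. The gate counts moved more. Without the replicate block, which ties both sides of a gate to their library, 0 members were called for Foxa2 and for Sox2 at both stages. Thinning also left 0 in each of these 4 comparisons, with 21 to 33 members testable. For Foxa2 at E6.75 the count of 5 became 3 with library totals alone, 8 with no filter, 9 in cells with at least 10000 transcripts, 0 with cells rich in visceral endoderm markers left out, and 0 to 7 without single libraries. For Foxa2 at E7.5 the count of 8 became 5 with RLE factors, 4 with DESeq2 and 15 with no filter, and 6 to 9 without single libraries. For Sox2 at E6.75 the count of 2 became 1 with RLE factors and in cells with at least 10000 transcripts, 5 with library totals alone and with a gate at 2 transcripts, 6 with no filter, 0 with DESeq2 and with cells rich in visceral endoderm markers left out, and 0 to 5 without single libraries. For Sox2 at E7.5 single libraries left out gave 1 to 2. For T at E6.75, 1 member (Mycn) was called with no filter, and 0 to 1 without single libraries (1 without replicate 2_9). For Mesp1 at E7.5 the range was 0 to 2 (1 without replicate 4 or 8, 2 without replicate 6). The Sox2 interaction with stage had 2 members called with no filter. Of 1184 values of single genes under alternatives, 1065 stayed called or stayed uncalled, 111 lost a call and 8 gained one. No value that was called in the main fit or the alternative changed sign. Sign changes of values called in neither are among the 1065. Myc across T at E7.5, for example, ran from -0.14 to 0.39 with single libraries left out. The cause of these changes was not tested, beyond the smaller number of cells, transcripts or genes that an alternative leaves. The stages share no replicate numbers, so no paired analysis was possible between them. Myc was counted at a median of 1 and 0 transcripts a cell, so its values per library rest on few transcripts.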
